A study of Mus musculus with 30 samples.

Results

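The comparison described here is that of mice whose intestinal epithelial cells lacked Xbp1 with wild-type (WT) mice, 10 of the 30 colon libraries of the study. The libraries were chosen by their genotype label, XBP1IEC-KO for the 5 knockout mice and WT for the 5 controls, and no measured value entered the choice. Gene expression was measured in total RNA of the colon by 3′ tag sequencing, which counts reads near the end of each transcript, with 1 library per mouse. IEC in the label stands for intestinal epithelial cell. The sources used here name no Cre driver, deleted exon, age or sex, and the WT label names no floxed allele or Cre. For a second look at the loss of Xbp1, 5 mice lacking both Xbp1 and Casp8 in the epithelium (the double knockout, XBP1IEC-KO with Casp8IEC-KO) were set against 5 mice lacking Casp8 alone (Casp8IEC-KO). The other 10 libraries came from 2 triple knockouts, in which TNFR1IEC-KO or MLKLKO was added to the double knockout, and are used for levels and in the fit of all 30 libraries.

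XBP1 is a transcription factor of the unfolded protein response. When unfolded proteins gather in the endoplasmic reticulum (ER), the sensor IRE1 splices Xbp1 mRNA, and the protein made from the spliced form raises the transcription of chaperones, of the machinery that moves proteins into and out of the ER, and of lipid synthesis. In the colon the cells with the heaviest secretory load are goblet cells, which make the mucus, and the intestine also has its own IRE1, IRE1β, encoded by Ern2.

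The libraries held 4316399.5 to 4892575.7 reads in the knockout and 3693330.0 to 4445924.8 reads in WT, so that 1 read was worth 0.204 to 0.271 CPM (a gene's reads relative to the scaled total of its library). Sex, called from Xist and Y-linked genes, was unbalanced, with 3 females and 2 males in the knockout and 1 female (replicate 3) and 4 males in WT. Colonocyte markers, among them the carbonic anhydrase gene Car1, summed to 15033 to 17323 CPM in the knockout and 14135 to 16719 CPM in WT, and squamous epithelium markers, which a colon should lack, to 5.603 to 7.66 CPM in the knockout and 3.119 to 8.851 CPM in WT. Mitochondrial genes took 19.7% ± 2.07 of the reads in the knockout and 17.6% ± 1.04 in WT (SD, n = 5 each). That share counts every gene named mt-. The 13 genes of the mitochondrially encoded list went the other way, with a median sum of 46360 CPM in the knockout and 56259 CPM in WT. Knockout replicate 5 stood apart by its interferon-induced genes, with a summed level of the type I interferon list of 3673 CPM against 265 to 365 CPM in the other 4 knockout libraries and 233 to 289.6 CPM in WT. The library labelled Xbp1 knockout replicate 2 had 21.1 CPM of Casp8, while the other 4 knockout libraries had 50.9, 61.7, 44.99 and 66.7 CPM and the WT libraries 51.5, 52.4, 52.4, 58.7 and 52.8 CPM. The 4 groups with a Casp8 deletion had 12.2 to 46.3 CPM of Casp8, and knockout replicates 2 and 4 both lay within that range. Replicate 2 was the lowest of the 10 libraries compared. The count of all changed genes and those of some lists are given also without it.

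The targeted gene itself had 54.8, 54.0, 52.6, 51.1 and 65.1 CPM of Xbp1 tags in the knockout and 100.2, 75.4, 94.9, 60.3 and 52.8 CPM in WT. The groups overlapped through knockout replicate 5 and WT replicates 4 and 5, and the difference of -0.47 ± 0.15 (log2 fold change, knockout minus WT, ± SE) had an adjusted p of 0.122 in edgeR's quasi-likelihood test with Benjamini-Hochberg adjustment. Without WT replicate 5 the adjusted p was 0.0473. In the other Xbp1-deleted groups the mean was 104.2 CPM in the double knockout, 66.1 CPM with TNFR1 deleted in addition and 74.4 CPM with MLKL deleted in addition, and it was 99.0 CPM in the Casp8 knockout. A tag from the end of the transcript does not read a deletion elsewhere in the gene, and the colon holds many cells outside the epithelium, so these tags do not check the Xbp1 label.

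Of 14311 genes tested, 220 differed between the knockout and WT at an adjusted p under 0.05 (1.54% of the genes), 110 of them higher in the knockout (0.769%) and 110 lower (0.769%). At an unadjusted p under 0.05 there were 2491 of the 14311 genes. This number and the 1.54% called are the background for the counts in the lists below. Changes of at least 2-fold were 24 of the higher and 8 of the lower genes. In 189 of the 220 genes the 5 knockout libraries did not overlap the 5 WT libraries, which was so for 656 (4.58%) of all genes tested. Without knockout replicate 2 the test called 94 genes (0.647% of those tested then), 89 of them among the 220, and all 220 kept their direction. The count rested on single libraries on both sides, with 50 genes without WT replicate 2, 48 without WT replicate 4, 92 without knockout replicate 1, 122 without knockout replicate 3, 132 without knockout replicate 4 and 128 without WT replicate 1. A fit of all 30 libraries, in which the more variable genotypes set the spread as well, called 13 genes (0.084%), all 13 of them among the 220. With sex as a term 39 genes passed, and between 2 knockout and 4 WT males 17 genes did. All 220 genes kept their direction in both, and their median absolute log2 fold change was 0.56 with sex as a term, 0.58 between males and 0.59 without the term. These fits, like that without knockout replicate 2, reuse the libraries by which the 220 genes were called. A kept direction was thus largely fixed in advance and is no separate check. Females could not be compared, since WT had 1.

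There were 37 genes that passed in all 10 fits that left out a library in turn. They included the mucin Muc2, the gut hormone gene Pyy, the metallothioneins Mt1 and Mt2, Insig1 of cholesterol control, the calcium-binding protein gene S100a11 and the gasdermin gene Gsdmc3. Of these 37, Muc2, Mt1, S100a11, Insig1, Lypla1 and Stoml2 passed in the fit of all 30 libraries too. Between males, S100a11, Lypla1 and Gsdmc3 did not pass (adjusted p of 0.0916, 0.0816 and 0.0582 in that order).

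**Figure D1:**
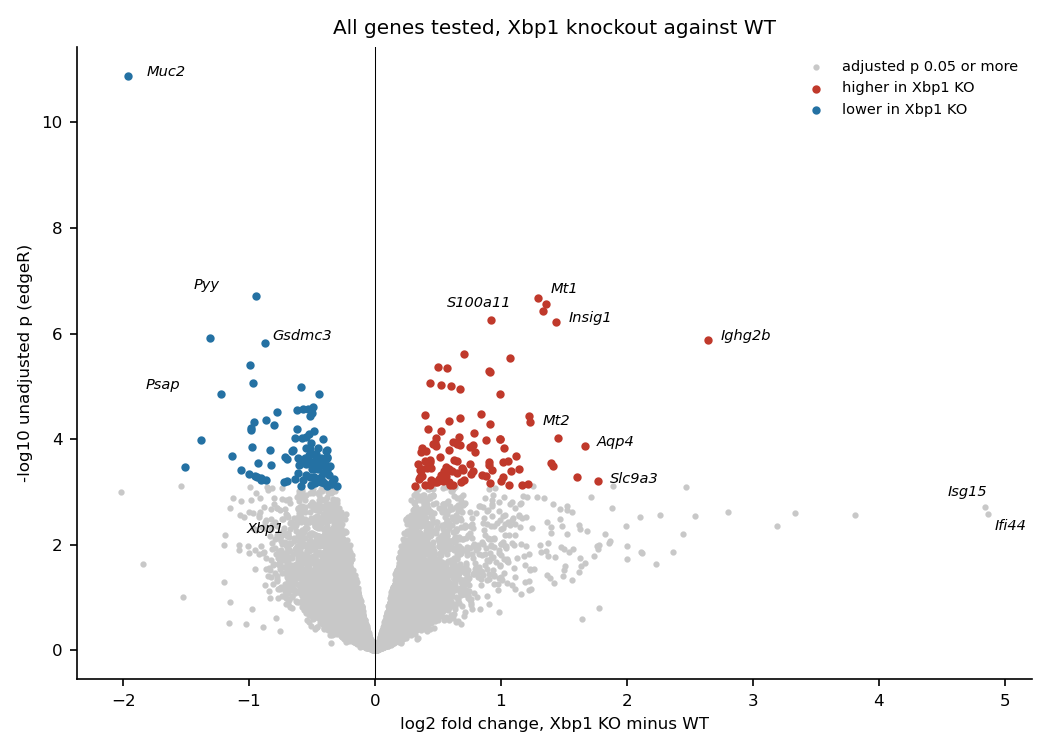
Each point is 1 of the 14311 genes tested; the horizontal axis is the log2 fold change of the Xbp1 knockout over WT and the vertical axis the -log10 of the unadjusted p of edgeR's test. Red and blue points are the 110 higher and 110 lower genes, with Muc2 far above the rest at a log2 fold change of -1.96, while Isg15 and Ifi44, which were high in 1 knockout library, have large fold changes and did not pass.

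Muc2, which encodes the gel-forming mucin of colonic mucus, had 431, 587, 493, 480.0 and 512 CPM in the knockout and 1598, 1765, 2009.5, 2002 and 2387 CPM in WT. Every knockout library was far below every WT library. Muc2 (chromosome 7, 141690340 to 141754693 of GRCm38, plus strand) fell to 0.257 of the WT level, a log2 fold change of -1.96 ± 0.12 with an adjusted p of 1.87e-07, the smallest of all genes tested. The change was -2.02 without knockout replicate 2 and -2.08 between males, where the adjusted p was 0.000107. Muc2 averaged 697 ± 186 CPM in the double knockout, 430 ± 189 CPM with TNFR1 deleted in addition and 648 ± 71.9 CPM with MLKL deleted in addition (SD, n = 5 each), and 1698 ± 153 CPM in the Casp8 knockout. All 4 groups with deleted Xbp1 were thus low in Muc2, and both groups with intact Xbp1 were high.

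The other secreted proteins of goblet cells did not pass the test. Of 12 measured genes of that list, Muc2 was the 1 that fell and 0 rose, and the list's median log2 fold change was -0.05, against -0.003 over all genes. Clca1, a protease of the mucus, had 1172, 1075, 1236, 1236 and 1166 CPM in the knockout and 1072, 1009, 1232, 1241 and 1212 CPM in WT. The 2 groups lay on top of each other, with a log2 fold change of 0.03 ± 0.08. Zg16, a lectin that binds bacteria in the mucus, ranged over 2087 to 2921 CPM in the knockout and 1938 to 3177 CPM in WT, and Tff3, the trefoil peptide of mucosal repair, over 889.6 to 1123 CPM in the knockout and 734 to 1169 CPM in WT. Fcgbp, a large mucus protein, had a log2 fold change of -0.22 ± 0.11 (adjusted p = 0.303). Agr2, the ER disulfide isomerase that mucin folding needs, was at -0.38 ± 0.12 (adjusted p = 0.107, and 0.0227 without knockout replicate 5). The peptide genes Spink4 and Reg4 were at 0.39 ± 0.13 and -0.35 ± 0.12, with adjusted p of 0.127 and 0.125, and Reg4 had 0.0474 without WT replicate 1.

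**Figure D2:**
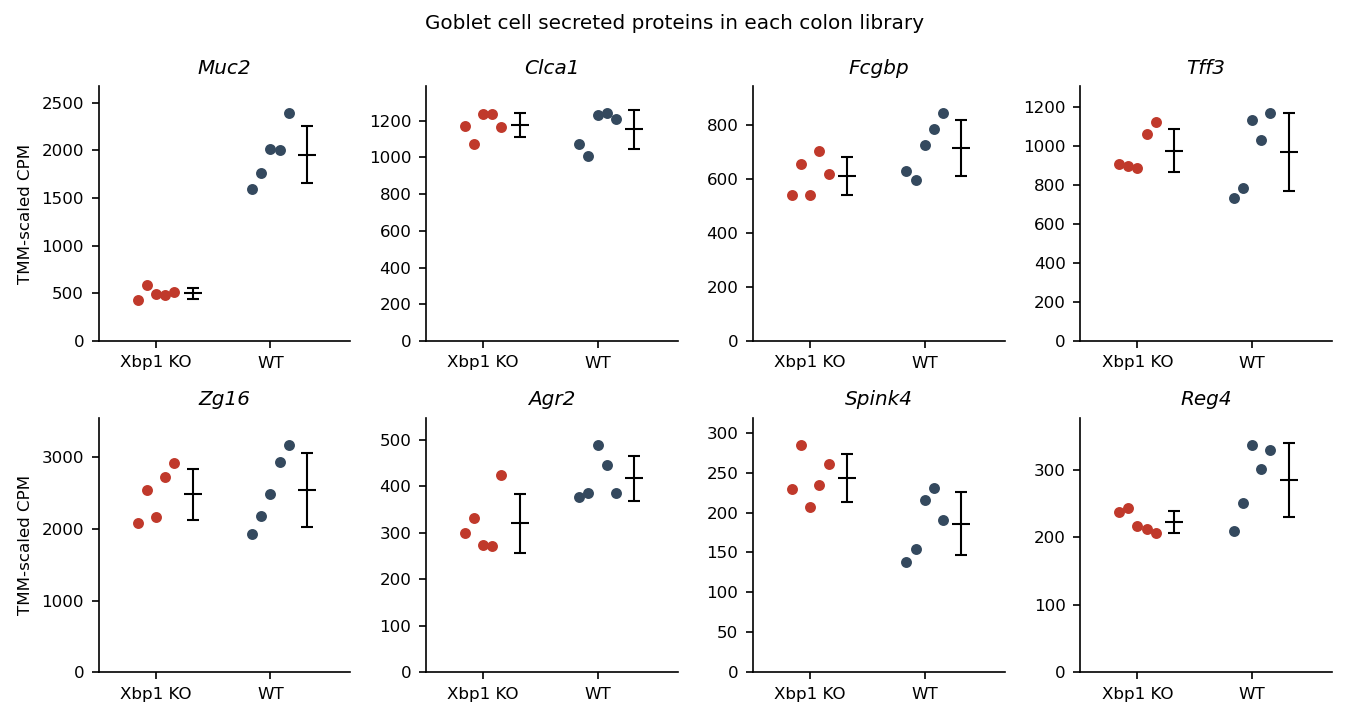
TMM-scaled CPM of 8 goblet cell genes in the 5 Xbp1 knockout (red) and 5 WT (blue) libraries, each on its own axis from 0; points are mice and bars give the mean ± SD. Muc2 is separated, at 431 to 587 CPM against 1598 to 2387 CPM, and the other 7 genes overlap between the groups.

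Among 24 genes that glycosylate and transport mucin, 1 rose and 0 fell. St3gal4, a sialyltransferase, had 96.2, 74.6, 58.8, 104 and 111 CPM in the knockout and 54.4, 42.9, 47.6, 51.5 and 52.0 CPM in WT. All knockout libraries were higher, and the log2 fold change was 0.84 ± 0.15 (adjusted p = 0.0143). Ern2 was at 76.7, 88.7, 82.4, 74.4 and 70.1 CPM in the knockout and 94.2, 78.9, 89.4, 75.5 and 104 CPM in WT, which overlapped (adjusted p = 0.416). Of 10 secretory lineage transcription factors 1 rose. Atoh1, the factor that commits crypt cells to a secretory fate, had 47.3, 34.0, 32.7, 43.8 and 48.7 CPM in the knockout and 25.5, 24.2, 32.2, 27.2 and 28.1 CPM in WT. The groups came close without overlapping, with a log2 fold change of 0.59 ± 0.13 (adjusted p = 0.0361). Atoh1 passed in 4 of the 10 fits without a library, with an adjusted p of up to 0.106, and between males (0.0461). It did not pass with sex as a term (0.096) or in the fit of all 30 libraries (0.172). Spdef, which drives goblet cell maturation, was at 0.45 ± 0.21 (adjusted p = 0.270), and Klf4, another goblet cell factor, at -0.30 ± 0.09 (adjusted p = 0.0874). In bulk RNA, fewer cells of a type and less RNA per cell cannot be told apart.

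Of 10 measured genes of enteroendocrine cells, the scattered hormone-secreting cells of the epithelium, 1 rose and 1 fell. Pyy, whose peptide slows gut transit and appetite, had 64.8, 69.5, 75.0, 80.3 and 84.1 CPM in the knockout and 118, 140.3, 138, 144 and 179.6 CPM in WT. The knockout libraries were all lower, and the log2 fold change of -0.94 ± 0.11 had an adjusted p of 0.00098, with 0.0365 between males and 0.0639 in the fit of all 30 libraries. Gcg, which encodes proglucagon and through it GLP-1, had 36.5, 34.98, 27.9, 32.5 and 41.4 CPM in the knockout and 23.3, 26.1, 26.9, 20.96 and 23.4 CPM in WT. It was higher in every knockout library, at 0.52 ± 0.12 (adjusted p = 0.0413). Gcg passed in 2 of the 10 fits without a library, with an adjusted p of up to 0.102. It did not pass without knockout replicate 2 (0.0759), with sex as a term (0.128) or between males (0.219). The other 8 genes of the list, among them the granule protein gene Chga (-0.12, adjusted p = 0.741) and Insl5 (0.20, adjusted p = 0.508), did not pass.

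Both measured metallothioneins, small proteins that bind zinc and other metals, rose in the knockout. Mt1 had 1472, 1883, 1532, 1339.7 and 1032 CPM in the knockout and 443, 674, 556, 724 and 567 CPM in WT, with no overlap. Its log2 fold change was 1.30 ± 0.15 (adjusted p = 0.00098), and it was 1.18 without knockout replicate 2 and 1.23 between males (adjusted p = 0.00571). Mt2 had 432, 452, 378, 448 and 202 CPM in the knockout and 146, 206, 145, 226 and 94.9 CPM in WT. Here knockout replicate 5 lay among the WT libraries, and the log2 fold change was 1.23 ± 0.22 (adjusted p = 0.0168, and 0.158 in the fit of all 30 libraries). The other 14 measured genes of zinc handling did not pass in edgeR. Slc30a5, a zinc exporter into secretory vesicles, came nearest with 18.2 to 27.2 CPM in the knockout and 8.06 to 17.3 CPM in WT, a log2 fold change of 0.70 ± 0.18 (adjusted p = 0.0604, and 0.0109 in DESeq2). Mtf1, the zinc-sensing factor that acts on both metallothionein genes, was at -0.03 (adjusted p = 0.935).

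The promoters of both metallothionein genes are shown because these neighbours on chromosome 8 moved together. They run from 250 bases before to 50 bases after the start of transcription in RefSeq on GRCm38.p6, plus strand, for Mt1 from 94178839 to 94179138 and for Mt2 from 94172368 to 94172667. Capitals mark matches to the metal response element searched as TGCACNC or TGCGCNC on either strand.
Mt1: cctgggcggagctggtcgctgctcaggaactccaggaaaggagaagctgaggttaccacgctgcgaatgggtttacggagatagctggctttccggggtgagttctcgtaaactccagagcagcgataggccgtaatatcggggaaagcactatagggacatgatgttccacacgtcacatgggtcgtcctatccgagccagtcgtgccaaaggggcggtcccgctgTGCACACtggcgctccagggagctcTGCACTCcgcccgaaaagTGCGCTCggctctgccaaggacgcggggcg
Mt2: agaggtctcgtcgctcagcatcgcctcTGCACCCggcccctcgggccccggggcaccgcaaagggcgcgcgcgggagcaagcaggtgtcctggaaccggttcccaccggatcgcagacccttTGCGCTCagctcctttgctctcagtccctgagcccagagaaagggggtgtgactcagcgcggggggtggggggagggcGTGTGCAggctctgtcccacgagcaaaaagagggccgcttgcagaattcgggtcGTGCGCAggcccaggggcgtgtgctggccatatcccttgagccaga
Mt1 held 3 and Mt2 held 4 matches, and at least 1 match was in 25.6% of the 27025 promoters of the table and in 17 of the 50 named genes with a promoter there. The XBP1 element TGACGTGG was in 0.607% of all promoters and in 1 of the 50, that of Slc30a5. The ER stress element, CCAAT and CCACG at their fixed spacing, was in 0.13% and in 1, that of Hsp90b1, and the sterol response element TCACNCCAC in 1.22% and in 1, again Hsp90b1. The windows of Muc2 and Pdia3 held none of these letters, nor did those of Insig1, Lss and Hsd17b7 hold the sterol element.

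Genes of cholesterol synthesis and its control were higher in the knockout, 4 of 23 past the threshold and 0 below it, with a median log2 fold change of 0.41 over the list and -0.003 over all genes. At an unadjusted p under 0.05, 17 of the 23 were higher and 0 lower. Insig1, the ER membrane protein that holds back the factor SREBP when sterols are plentiful and is itself an SREBP target, had 29.5, 18.5, 17.4, 25.2 and 29.2 CPM in the knockout and 9.25, 9.25, 6.67, 10.02 and 9.10 CPM in WT. The libraries did not overlap, and the log2 fold change was 1.43 ± 0.18 (adjusted p = 0.00122), 1.51 without knockout replicate 2 and 1.54 between males (adjusted p = 0.00279). In the other Xbp1-deleted groups Insig1 averaged 23.4 ± 7.32 CPM in the double knockout, 12.9 ± 7.05 CPM with TNFR1 deleted in addition and 20.2 ± 5.30 CPM with MLKL deleted in addition (SD, n = 5 each), and it averaged 14.5 ± 2.86 CPM in the Casp8 knockout.

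Lss, lanosterol synthase, had 36.3, 25.2, 25.3, 28.7 and 37.5 CPM in the knockout and 15.6, 17.3, 14.7, 20.7 and 20.5 CPM in WT, all knockout libraries being higher. The log2 fold change was 0.79 ± 0.15 (adjusted p = 0.0220), with 0.0508 without knockout replicate 1, 0.0621 without WT replicate 2 and 0.129 between males. Hsd17b7, which acts late in the pathway, was 34.2 to 49.8 CPM in the knockout and 27.7 to 33.8 CPM in WT. It was at 0.56 ± 0.12 (adjusted p = 0.0359), and passed in 2 of the 10 fits without a library. Without knockout replicate 2 its adjusted p was 0.0759. Of those that did not pass, Mvd was at 0.64, Fdps at 0.57 and Srebf2, the gene of SREBP2, at 0.30 (adjusted p of 0.0725, 0.0874 and 0.0742 in that order). Summed over the list, the levels were 2702, 2701, 1859.6, 2256 and 2827 CPM in the knockout and 1570.0, 1834, 1653, 2065 and 2257 CPM in WT, so that replicates 3 and 4 of the knockout lay within the WT range. Members past the threshold numbered 3 without knockout replicate 2, 1 without knockout replicate 1, 6 without knockout replicate 3, 2 without WT replicate 1, 1 without WT replicate 2, 2 without WT replicate 4, 7 without WT replicate 5 and 2 with sex as a term. Of 18 genes of fatty acid synthesis 0 passed in edgeR, with 4 at an unadjusted p under 0.05 and a median of 0.12, while DESeq2 called 2 and limma voom 1.

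**Figure D3:**
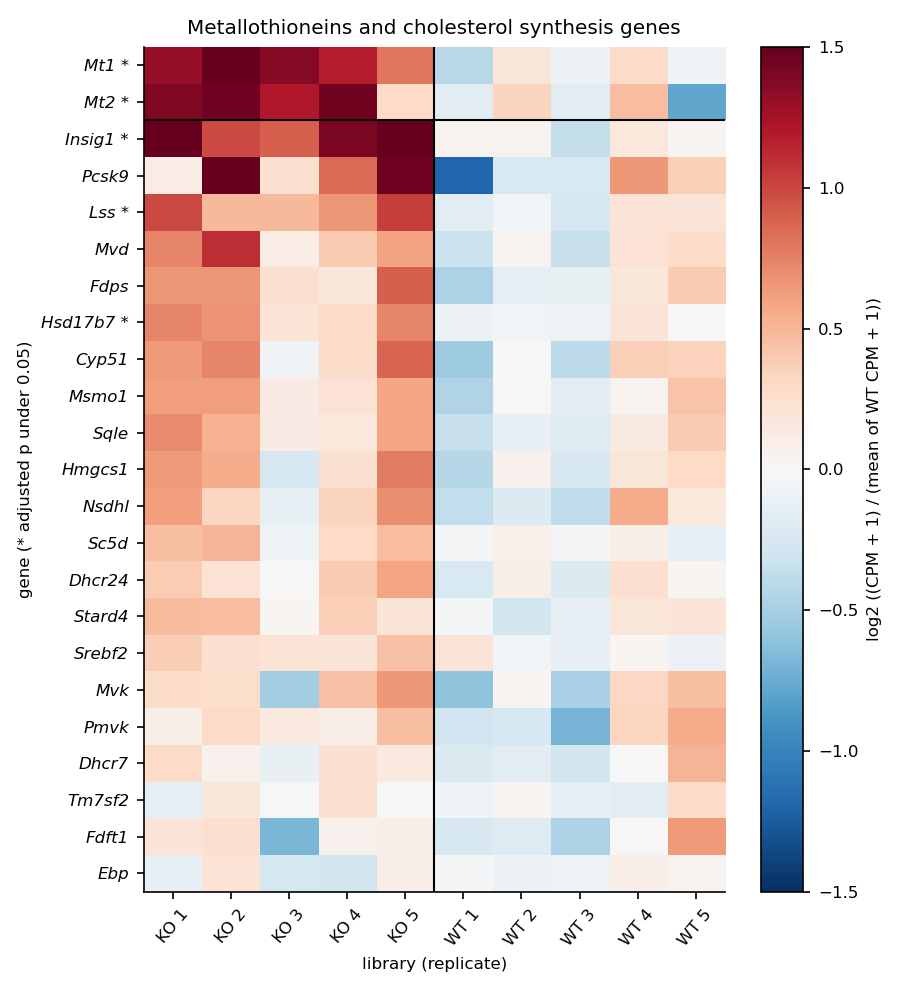
Colour gives the log2 ratio of CPM + 1 in each library to the mean of WT + 1 for Mt1 and Mt2 (top) and for 21 of the 23 measured genes of cholesterol synthesis and control, ordered by fold change; columns are the 5 Xbp1 knockout and then the 5 WT libraries, and asterisks mark an adjusted p under 0.05. Knockout replicates 1, 2 and 5 are the reddest over the cholesterol genes, and knockout replicate 3 is close to WT for many of them.

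Across 5 lists of the secretory pathway and 1 of transcripts cut by IRE1, 3 of 112 genes passed in whole colon RNA (2.68%, against 1.54% of all genes tested). Without knockout replicate 2, 1 gene of ER translocation rose, 0 fell, and none passed in the other lists. Of all genes tested in that fit, 0.647% were called. Of 21 measured genes for protein translocation into the ER, 1 rose and 1 fell, with a median of 0.00. Sec61a1, the channel through which new proteins enter the ER, had 77.0, 103, 107, 102 and 104 CPM in the knockout and 120.2, 131, 125, 148 and 165 CPM in WT. All knockout libraries were lower, and Sec61a1 fell by 0.48 on the log2 scale (SE 0.11, adjusted p = 0.0365). The antisense gene Gm44170, which lies within the 3′ end of Sec61a1, also fell, at -0.54 ± 0.12 (adjusted p = 0.0411). Reads there cannot be assigned to either gene with certainty. Spcs2, a subunit of the signal peptidase, had 92.4 to 108 CPM in the knockout and 69.1 to 86.1 CPM in WT, at 0.38 ± 0.08 (adjusted p = 0.0361). Sec61a1 passed in 3 and Spcs2 in 2 of the 10 fits without a library. Without knockout replicate 2 Spcs2 passed (adjusted p = 0.0495) and Sec61a1 did not (0.0622).

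Of 23 ER folding genes 1 rose and 0 fell, with a median of 0.13. That was Pdia3, a disulfide isomerase for glycoproteins, with 331, 361, 295, 311 and 345 CPM in the knockout and 266, 252, 267, 277 and 223 CPM in WT. The knockout libraries were all higher, at 0.36 ± 0.08 (adjusted p = 0.0427). The call was kept in 1 of the 10 fits without a library, and lost without knockout replicate 2 (0.0859). Hsp90b1, the chaperone GRP94, had 314 to 433 CPM in the knockout and 221 to 309.6 CPM in WT, at 0.42 ± 0.10 (adjusted p = 0.0522, and 0.0488 without knockout replicate 4). Hspa5, the main ER chaperone BiP, was at 0.09 (adjusted p = 0.804), and Dnajb9, a co-chaperone that XBP1 is known to induce, at -0.19 (adjusted p = 0.522).

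None passed among 15 genes of ER-associated degradation, 16 of N-glycosylation, 27 of ER to Golgi transport and 10 transcripts known to be cut by IRE1. For these the edgeR test gave 5, 4, 6 and 1 genes at an unadjusted p under 0.05. Over all genes it gave 2491 of 14311. In the same 4 lists DESeq2 called 2, 1, 1 and 0 genes, and limma voom called 0, 1, 0 and 0. Stt3a, the catalytic subunit of oligosaccharyltransferase, came nearest in N-glycosylation, with 64.6, 68.6, 70.4, 93.0 and 92.8 CPM in the knockout and 57.2, 52.9, 62.8, 55.7 and 54.3 CPM in WT (0.46 ± 0.11, adjusted p = 0.0522). The sensors of the unfolded protein response and their factors gave 0 of 12, with 2 at an unadjusted p under 0.05 and 0 by DESeq2. Ern1, which encodes IRE1α, had 20.9, 22.9, 25.3, 29.2 and 24.7 CPM in the knockout and 24.4, 25.8, 25.7, 22.6 and 22.9 CPM in WT, a log2 fold change of 0.02 ± 0.11. Atf6 was at -0.10 (adjusted p = 0.633) and Eif2ak3, the sensor PERK, at -0.35 (adjusted p = 0.537) on 2.86 to 9.25 CPM. Of 28 genes of the ATF4 stress response 0 passed, 7 had an unadjusted p under 0.05 and DESeq2 called 0. A 3′ tag does not separate spliced from unspliced Xbp1.

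Among the genes of absorptive colonocytes, the cells that take up water and salt, 2 of 29 rose and 0 fell. Aqp4, a water channel, had 89.7, 246, 80.3, 83.1 and 70.8 CPM in the knockout and 55.9, 18.97, 26.9, 42.2 and 35.9 CPM in WT. Replicate 2 was by far the highest, and the log2 fold change of 1.66 ± 0.33 (adjusted p = 0.0269) was 1.17 without it (adjusted p = 0.0229). The call was lost without WT replicates 2, 3 and 4 (adjusted p of 0.0772, 0.0505 and 0.0605). Slc9a3, the sodium-proton exchanger NHE3, had 29.97, 28.5, 19.7, 17.7 and 4.34 CPM in the knockout and 11.4, 4.27, 2.76, 4.42 and 6.24 CPM in WT. Replicate 5 was at the WT level, and the change of 1.77 ± 0.42 (adjusted p = 0.0455) passed in 2 of the 10 fits without a library. Slc9a3 did not pass without knockout replicate 2 (adjusted p = 0.0919), where 1 gene of the list rose. The chloride exchanger gene Slc26a3 (0.18) and the carbonic anhydrase gene Car1 (-0.09) were near 0 and did not pass (adjusted p of 0.588 and 0.836).

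Gsdmc3 and Gsdmc2, gasdermin C genes that encode pore-forming proteins of the gut epithelium, fell. Gsdmc3 had 45.6, 43.3, 49.5, 44.99 and 50.5 CPM in the knockout and 87.0, 82.7, 74.7, 72.4 and 114 CPM in WT, and the log2 fold change was -0.88 ± 0.12 (adjusted p = 0.00214). Gsdmc2 had 54.3, 50.7, 44.7, 51.6 and 48.7 CPM in the knockout and 80.6, 85.6, 58.6, 66.2 and 115 CPM in WT, at -0.70 ± 0.15 (adjusted p = 0.0323, 0.0579 without knockout replicate 2 and 0.129 with sex as a term), and passed in 4 of the 10 fits without a library. Neither gene overlapped between the groups. These genes are near-identical neighbours, and the sources used here do not say how reads were shared among them. Of 30 genes of cell death Gsdmc2 was the 1 that passed, and it fell. Mlkl, the pore former of necroptosis, was at 1.04 (adjusted p = 0.143), Ripk3, the kinase that activates it, at 0.52 (adjusted p = 0.269), and Casp8 at -0.12 ± 0.21 (adjusted p = 0.811).

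Other genes that passed in all 10 fits without a library had mostly smaller changes. S100a11 had 143, 196, 156, 132 and 159 CPM in the knockout and 92.9, 85.8, 76.8, 93.2 and 65.8 CPM in WT (0.92 ± 0.12, adjusted p = 0.00122). Tkt, the transketolase of the pentose phosphate pathway, was at 0.70 ± 0.10 (adjusted p = 0.00322), and Cmpk1, a nucleotide kinase, at 0.57 ± 0.08 (adjusted p = 0.00423). Rhoa, a GTPase of the actin skeleton, had 574 to 632 CPM in the knockout and 419.8 to 453 CPM in WT. In this narrow spread a log2 fold change of 0.44 ± 0.07 passed (adjusted p = 0.00654, and 0.133 between males). Cdc42se1, an effector of the related GTPase CDC42, was at 0.60 ± 0.09, the depalmitoylating enzyme gene Lypla1 at 0.52 ± 0.08, the dynein light chain gene Dynll1 at 0.67 ± 0.11 and the splicing factor gene Snrpd3 at 0.50 ± 0.07 (adjusted p of 0.00663, 0.00663, 0.00699 and 0.00423 in that order). The mitochondrial membrane protein gene Stoml2 was at 0.99 ± 0.16 (adjusted p = 0.0077).

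Of the genes that fell in all 10 such fits, Psap, which encodes the precursor of the lysosomal saposins, had 102, 58.6, 72.3, 61.7 and 84.5 CPM in the knockout and 164, 231, 97.0, 171 and 223 CPM in WT. WT replicate 3 lay below knockout replicate 1, and the log2 fold change was -1.22 ± 0.20 (adjusted p = 0.0077). Plin4, a lipid droplet protein gene, had 14.4 to 24.5 CPM in the knockout and 29.6 to 38.0 CPM in WT (-0.97 ± 0.15, adjusted p = 0.00654). Plin4 is 1 of 4 measured adipose markers, and the other 3 also had a lower fitted level without passing. The adipose list summed to 47.8, 37.3, 126, 74.2 and 39.5 CPM in the knockout and 155, 203.6, 83.7, 51.9 and 83.2 CPM in WT, which overlapped, and its part in the Plin4 result was not tested. The collagen receptor gene Ddr2 was at -0.50 ± 0.08, the matrix protein gene Sparcl1 at -0.57 ± 0.10, the caveolar protein gene Cavin1 at -0.50 ± 0.09 and the transglutaminase gene Tgm2 at -0.45 ± 0.07 (adjusted p of 0.0133, 0.0133, 0.0143 and 0.0077 in that order). Pdlim4, which binds the actin skeleton, was at -0.59 ± 0.09, Cdc42ep4, a CDC42 effector gene, at -0.53 ± 0.09 and Nkd2, an inhibitor of WNT signalling, at -0.62 ± 0.11 (adjusted p of 0.00664, 0.0133 and 0.0133 in that order). With sex as a term Plin4, Tgm2 and Pdlim4 passed. Psap, Ddr2, Sparcl1, Cavin1, Cdc42ep4 and Nkd2 did not, at adjusted p of 0.0538 to 0.0628. None of these genes, kept or lost with sex as a term, passed in the fit of all 30 libraries.

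Genes of the muscle wall and of nerves had negative median changes, with few members past the threshold. Of 14 smooth muscle genes 1 fell and 0 rose, 9 were lower at an unadjusted p under 0.05, and the median log2 fold change was -0.38, or -0.28 without knockout replicate 2. Mylk, myosin light chain kinase, had 1912, 1317, 1891, 1745 and 1503 CPM in the knockout and 2458, 2466, 2182, 2676 and 2156 CPM in WT (-0.51 ± 0.11, adjusted p = 0.0339), without overlap. The list summed to 10647, 6820.2, 10382, 10525 and 8638 CPM in the knockout and 12866, 11927, 11149, 13143 and 9553 CPM in WT, the lowest being replicate 2. Of 15 genes of enteric neurons and glia, 1 fell and 15 had a lower fitted level, with a median of -0.38, or -0.22 without knockout replicate 2. Nos1, the nitric oxide synthase of inhibitory motor neurons, had 8.53, 5.79, 10.3, 10.1 and 14.2 CPM in the knockout and 22.9, 22.1, 16.1, 16.8 and 15.6 CPM in WT (-0.93 ± 0.20, adjusted p = 0.0339, and 0.0314 in the fit of all 30 libraries). Without knockout replicate 2 neither Mylk nor Nos1 passed, with adjusted p of 0.0563 and 0.0574. The sources used here do not say how much of each tissue layer a piece of colon held, and its part in these differences, and in those of Sparcl1, Ddr2 and Cavin1, was not tested.

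Immune genes were higher in part of the knockout libraries. H2-Eb1, a chain of MHC class II, had 77.7, 186, 132, 150.5 and 130.0 CPM in the knockout and 52.8, 46.7, 80.0, 46.8 and 99.3 CPM in WT, and Cd74, its invariant chain, 70.9, 232, 126, 158 and 172 CPM in the knockout and 52.0, 53.6, 89.4, 52.9 and 96.4 CPM in WT. For both genes the groups overlapped through knockout replicate 1 and WT replicates 3 and 5. With H2-Ab1 these were the 3 of 28 genes of the interferon gamma and antigen presentation list that rose, at 1.06 ± 0.23, 1.14 ± 0.25 and 0.92 ± 0.22 for H2-Eb1, Cd74 and H2-Ab1 (adjusted p of 0.0336, 0.0364 and 0.0464). None of the 3 passed without knockout replicate 2 (0.0698, 0.0772 and 0.0983) or with sex as a term, and 0 genes of the list passed without knockout replicate 3 or 4 or WT replicate 1, 2 or 4. The list's median was 0.92, and 0.33 without knockout replicate 5.

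Markers of B cells moved with these genes. All 14 measured B cell markers had a higher fitted level, 13 of them at an unadjusted p under 0.05, with a median of 1.63. After adjustment edgeR and DESeq2 each called 0, and limma voom with quality weights called 9, with a median of 2.66. Their summed level was 78.7, 294, 216, 177 and 127 CPM in the knockout and 21.8, 15.4, 130.3, 17.5 and 119.8 CPM in WT, so WT replicates 3 and 5 reached the knockout range while the other 3 WT libraries were below it. Of 12 plasma cell genes 1 rose, the antibody constant region Ighg2b, with 7.31, 16.9, 12.6, 12.7 and 11.7 CPM in the knockout and 1.32, 0.474, 3.22, 1.17 and 3.64 CPM in WT. Every knockout library was higher in Ighg2b, at 2.65 ± 0.35 (adjusted p = 0.00214, and 0.0595 between males). Igha, the constant region of the gut's main antibody, was at 0.45 (adjusted p = 0.551). Of 14 monocyte and macrophage genes 1 rose, Ms4a7, with 13.7 to 23.4 CPM in the knockout and 8.06 to 11.9 CPM in WT (0.77 ± 0.17, adjusted p = 0.0402, lost without knockout replicate 2 at 0.0806). Mpeg1, a gene of macrophages that was not in that list and encodes a pore-forming protein, had 11.2, 17.6, 9.94, 10.1 and 11.9 CPM in the knockout and 4.84, 5.69, 6.21, 3.26 and 5.98 CPM in WT. The groups did not overlap, and the log2 fold change of 1.23 ± 0.22 (adjusted p = 0.0143, and 0.0293 without knockout replicate 2) passed in all 10 fits without a library. The summed macrophage list ranged over 472 to 622 CPM in the knockout and 360.4 to 528 CPM in WT. How far lymphoid tissue in the sampled piece entered these values was not tested. Slpi, a protease inhibitor of mucosal defence, was high in knockout replicates 2 and 5, with 23.4, 69.7, 24.02, 26.4 and 77.0 CPM in the knockout and 10.3, 9.01, 10.3, 24.2 and 18.97 CPM in WT (1.60 ± 0.37, adjusted p = 0.0427, 0.0891 without replicate 2 and 0.0618 without replicate 5).

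The type I interferon list gave 0 of 21 genes past the threshold in edgeR and 0 in DESeq2, with 19 at an unadjusted p under 0.05. Its median log2 fold change of 1.86 rested on knockout replicate 5, and was 0.33 without it. In edgeR 1 gene of the list rose without replicate 5, and 0 did without replicates 2 and 5. Isg15, a ubiquitin-like protein and typical interferon-induced gene, had 6.58, 4.63, 3.52, 5.89 and 322 CPM in the knockout and 1.32, 2.37, 2.07, 2.79 and 3.38 CPM in WT. Ifi44, another such gene, had 2.92, 3.71, 2.69, 3.30 and 239 CPM in the knockout and 1.10, 0.711, 2.07, 2.79 and 1.82 CPM in WT. Replicate 5 alone was high for both genes. Among the other 4 knockout libraries Isg15 was at 3.52 to 6.58 CPM, against 1.32 to 3.38 CPM in WT, and the nearest libraries were less than a read apart.

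**Figure D4:**
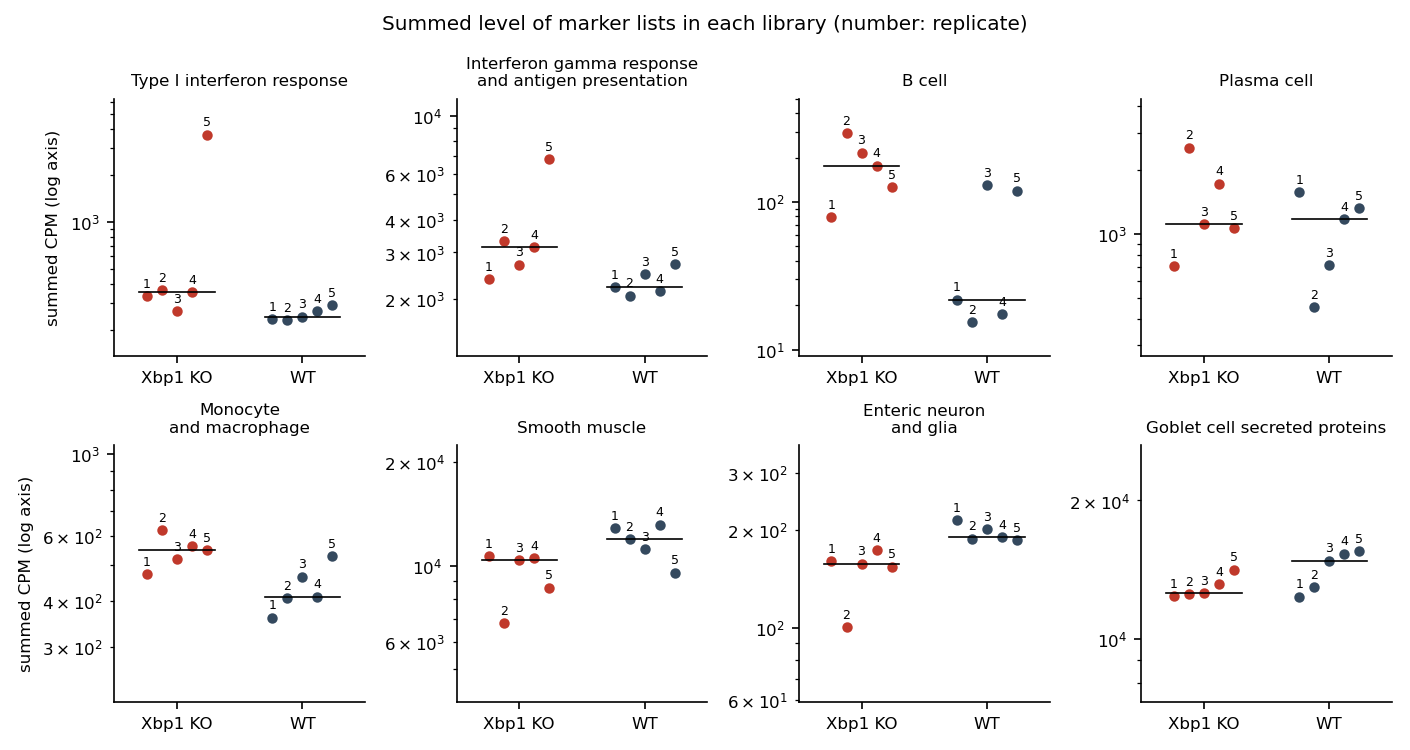
Summed CPM on a log axis of 8 marker lists in the 5 Xbp1 knockout (red) and 5 WT (blue) libraries, with the replicate number above each point and a line at the median. Knockout replicate 5 stands alone for type I interferon genes at 3673 CPM, WT replicates 3 and 5 reach the knockout for B cell genes, and knockout replicate 2 is lowest for smooth muscle and nerve genes.

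Noncoding and mitochondrial RNA differed as well. CT010467.1, annotated as ribosomal RNA, had 58657, 39504, 40763, 42155 and 37609.8 CPM in the knockout and 23169, 20412, 23153, 22333 and 15106 CPM in WT, a log2 fold change of 1.07 ± 0.15 (adjusted p = 0.00347). The knockout libraries thus carried more reads of this ribosomal gene, and its part in other differences was not tested. The complex I subunit gene mt-Nd4 had 11854 to 15057 CPM in the knockout and 18956 to 21537 CPM in WT (-0.52 ± 0.11, adjusted p = 0.0280, passing in 6 of the 10 fits without a library), the 1 of 7 measured mitochondrially encoded genes that fell. The small nucleolar RNA Snora81 had 19.7, 19.2, 15.7, 18.8 and 15.3 CPM in the knockout and 8.59, 5.45, 7.58, 7.69 and 5.72 CPM in WT (1.33 ± 0.16, adjusted p = 0.00109). It overlaps Gm49346, which has nearly the same reads, and the 2 cannot be told apart. Both lie within Eif4a2 on the same strand, which also rose, at 0.55 ± 0.13 (adjusted p = 0.0426). Reads of Eif4a2 cannot be told apart from theirs there. Zfp36, an mRNA-decay factor of the immediate early genes, was at 0.67 ± 0.13 (adjusted p = 0.0236, lost without WT replicates 2 and 4 at 0.0714 and 0.0605), and Ephb3, a receptor that WNT induces at the crypt base, at -0.55 ± 0.12 (adjusted p = 0.0339, passing in 5 of those 10 fits). Within 20 Mb of Xbp1 on chromosome 11, 1 of 124 genes tested was called, C1d, against 1.54% of all genes tested.

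Of the 220 genes, 184 (83.6%) had the same direction in the double knockout against the Casp8 knockout, while 59.1% of all 14309 genes measured in both did. This second comparison shares no library with the first. It set 1 female and 4 males of the double knockout against 3 females and 2 males of the Casp8 knockout. The part of sex in it was not tested. That comparison had many more calls, 2799 genes or 18.6% of those tested, 9.97% called higher and 8.59% called lower. Of the 110 genes that rose with Xbp1 loss alone, 89 were higher there, 43 of them called higher and 1 of the 110 called lower, with a median log2 fold change of 0.35 there and 0.67 here. Of the 110 that fell, 95 were lower there, 59 called lower and 1 of the 110 called higher, with medians of -0.49 there and -0.52 here. The genes were chosen by their change here, which by itself makes the medians here larger in size. Across the 220 genes Pearson's r was 0.71, and 0.31 over all genes, a description over genes, which are not independent.

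Muc2 fell there by 1.28 on the log2 scale (adjusted p = 3.19e-05) and Pyy by 0.77 (adjusted p = 0.0127), Insig1 rose by 0.68 (adjusted p = 0.0256), Lss by 0.83 (adjusted p = 0.0105) and Hsd17b7 by 0.75 (adjusted p = 0.00352). Gcg rose by 0.64 (adjusted p = 0.00894) and Gsdmc3 fell by 1.44 (adjusted p = 0.000308). Mt1, at 0.28 (adjusted p = 0.393), and Atoh1, at 0.34 (adjusted p = 0.109), did not pass there, nor did Sec61a1 at -0.35 (adjusted p = 0.0686) or Aqp4 at 0.38 (adjusted p = 0.437). Mt1 averaged 1370 ± 399 CPM in the double knockout and 1129 ± 432 CPM in the Casp8 knockout (SD, n = 5 each). Clca1, which did not pass after Xbp1 loss alone, fell by 0.66 there (adjusted p = 0.0111), and Fcgbp fell by 0.68 (adjusted p = 0.00341), but the differences between the backgrounds were not past the threshold (interaction, adjusted p = 0.143 and 0.252).

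The interaction, the change on the Casp8-deleted background minus the change on the intact one, passed for 8 of the 220 genes, while 111 of all 15080 genes tested passed (0.736%). The 220 genes were chosen by the change on the intact background, which the interaction subtracts. That choice by itself favours an interaction opposite in sign to the change, so their share cannot be compared with that of all genes. It was -0.45 for Rhoa (adjusted p = 0.0437), which was at -0.01 in the double knockout against the Casp8 knockout, and -1.11 for St3gal4 (adjusted p = 0.0429), at -0.27 there. The interaction was 0.68 for Muc2 (adjusted p = 0.109), -1.01 for Mt1 (adjusted p = 0.101) and -0.75 for Insig1 (adjusted p = 0.193), none of them past the threshold. Without knockout replicate 2, whose Casp8 tags were low, the interaction passed for 51 genes in all.

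**Figure D5:**
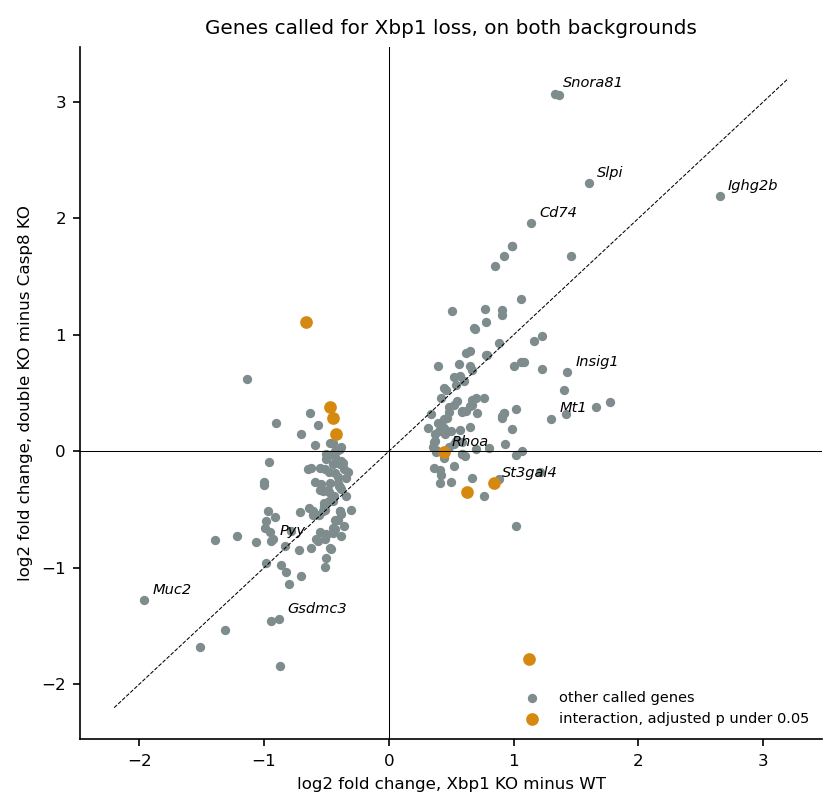
Each point is 1 of the 220 genes called for Xbp1 loss alone; the horizontal axis is the log2 fold change of the Xbp1 knockout over WT and the vertical axis that of the double knockout over the Casp8 knockout, which use different libraries. The dashed line marks equal change; 184 of the 220 genes lie in the quadrants of equal sign, and the 8 orange genes passed the interaction test.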

How the data were processed

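Total colon RNA of 30 mice of 6 genotypes, 5 mice each, was sequenced with the Lexogen 3′ QuantSeq forward kit, from 2 µg of RNA per mouse with an RNA integrity number above 7, per the labels' protocols. What the authors deposited for each Ensembl gene is an estimated count of its reads, and 11.2% of the values above 0 were not whole. The tools named in the submitters' processing notes are featureCounts 2.01, cutadapt 3.2, R 4.0.0 and Subread, and the build is GRCm38 (mm10). Strand setting, annotation release and the sharing of reads between genes are in none of the sources used here, so overlapping and antisense genes cannot be told apart. No molecular identifiers are named, so reads can be PCR copies.

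Of 55579 features, 92 spike-in sequences held 0 reads and were left out. Of 55487 genes, 55227 were matched to a symbol, and the other 260 held 0.0191% of the reads. Rounding the estimated counts to whole numbers moved no library total by more than 0.0317%. The 10 libraries compared were fitted alone with edgeR 4.0.16 in R 4.3.3 (filterByExpr, TMM, quasi-likelihood F test). A Benjamini-Hochberg adjusted p under 0.05 over all 14311 genes kept was a call. They were fitted alone because the spread differed between genotypes, with a common biological coefficient of variation of 0.17 in the Xbp1 knockout, 0.142 in WT and up to 0.229 in the double knockout. The SE is the log2 fold change divided by the square root of F. Printed CPM are TMM-scaled over all 30 libraries, a 3′ tag needing no length correction. The change on the Casp8-deleted background and the interaction came from a fit of 20 libraries. The edgeR test of the 10 libraries was also run on simulated counts with known changes, and the other fits and steps were not. Replicates are separate mice, and every pair within a group had a chi-square per gene of at least 3.27, where Poisson noise alone gives about 1.

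The members and lists, and the rule for named genes, were chosen with earlier results of these data known. The rule took Xbp1 and Casp8, the 12 lowest p-values among the higher and among the lower genes (without immunoglobulin segments and genes with model or clone names), the 4 members with the lowest p in each of 45 lists, and all measured members of the goblet, secretory factor, stress sensor and metallothionein lists. Stoml2, CT010467.1, Gm49346, Gm44170, Eif4a2, C1d, Hspa5, Dnajb9, Ripk3, Mvd, Fdps, Srebf2, Chga, Insl5, Igha, Slc26a3, Car1 and Mpeg1 fall outside it and were named after their values were seen. So were Igfbp2 and Casp14, which are not among the named genes counted for promoters and settings. Some members of the lists are counted but not reported here by name. Alternatives were relative log expression size factors, no low-count filter, at least 5 CPM in 5 libraries, all 30 libraries, limma 3.58.1 voom with quality weights, DESeq2 1.42.0, replicate number as a block, sex as a term and each library left out. The comparison of males alone was added after seeing the data.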

Additional observations from a re-analysis of the deposited data

Results flagged for a closer look

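The values below stood apart from the other 4 libraries of their group by Dixon's test for 5 values at the 95% level, which flags about 1 group in 20 by chance. It was run on 210 groups of values and marked 16. None was weighed for a cause.

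Knockout replicate 5 was the highest knockout library in 6 measures. It had 65.12 CPM of Xbp1 (the others 51.11 to 54.81), 322.2 CPM of Isg15 (3.52 to 6.578) and 239 CPM of Ifi44 (2.691 to 3.706). Its summed levels were 3672.7 CPM for the type I interferon list (265 to 365.1), 6808.8 CPM for the interferon gamma and antigen presentation list (2373.3 to 3319.1) and 1304.1 CPM for the proliferation list (912.5 to 1011.8).

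Knockout replicate 2 had 246.2 CPM of Aqp4 (the others 70.83 to 89.65), 17.61 CPM of Mpeg1 (9.938 to 11.88) and the lowest sum of the enteric neuron and glia list, 100.5 CPM (154.4 to 173.4). Knockout replicate 1 was lowest for Sec61a1, at 76.98 CPM (102 to 106.6), and for the epithelial antimicrobial list, at 2546.6 CPM (3191.5 to 3398.3).

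In WT, replicate 4 was highest for Casp8, at 58.7 CPM (51.51 to 52.76), and for Hsd17b7, at 33.77 CPM (27.74 to 29.37). WT replicate 3, the only female, was lowest for Insig1, at 6.665 CPM (9.097 to 10.02), and highest for the small intestine and Paneth cell list, at 429.3 CPM (166.9 to 202.4). WT replicate 5 was highest for the cell death list, at 2637.2 CPM (2208.8 to 2294.3).

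The effect of Xbp1 loss differed between the Casp8-deleted and the intact background by a test of the interaction for Rhoa, at -0.45 on the log2 scale (adjusted p = 0.0437), and for St3gal4, at -1.11 (adjusted p = 0.0429). Both genes were chosen by their change on the intact background, which the interaction subtracts.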

How the results depend on the processing

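The 220 genes were 219 with relative log expression size factors and 225 with at least 5 CPM in 5 libraries, and the median log2 fold change of all genes lay between -0.008 and 0 under every setting run. The count was 546 without a low-count filter, 351 with limma voom, 587 with DESeq2, 93 without knockout replicates 2 and 5, 39 with sex as a term, 17 in males alone and 13 with all 30 libraries. Leaving out 1 library gave 48 to 214 genes. With replicate number as a block (replicate block) 95 genes passed, 87 of them among the 220, but the deviations of same-numbered libraries correlated by -0.181 to 0.258 and the numbers were not taken to pair mice. The interaction passed for 51 genes without knockout replicate 2 and for 213 in the fit of 30 libraries. The short forms ACGTG and CCACG of the XBP1 and ER stress elements were in 15 and 23 of the 50 promoters of named genes, and in 19.7% and 32.7% of all promoters. The cause of these shifts was not tested. Of 67 named genes, none changed direction while past the threshold under any setting, though every setting reuses libraries of the main fit. Among those called in the main fit, 40 lost the call with all 30 libraries, 38 in males alone and 26 with sex as a term. The 67 also include genes that had no call to lose, such as Xbp1 and Agr2, so these losses are a larger share of the called genes than of the 67. At 0.204 to 0.271 CPM per read before scaling, genes of a few CPM, such as Isg15 outside knockout replicate 5, rest on few reads.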
